A study of Mus musculus with 2 samples.

Results

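Receptor tyrosine kinases are the membrane receptors through which growth factors, hormones and matrix proteins signal by phosphorylating tyrosines. The 51 genes described here were taken from the main families, namely the EGF, FGF, insulin, PDGF, VEGF, MET, TIE, TAM, discoidin, neurotrophin, RET, ROS, ALK and ephrin receptors together with *Ryk*, *Ptk7* and *Musk*. Their members were found on the array as every non-control probe that carried 1 of these gene names, which gave 83 of the 55681 probes. The 51 genes stand among 24522 with a symbol on the array. A total of 31 genes had 1 probe and 20 genes had several.

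The RNA came from 4T1 cells, a mouse mammary carcinoma line of BALB/C origin, which had been grown in culture without treatment. The cells were sorted with the ALDEFLUOR reagent, which makes cells with high aldehyde dehydrogenase (ALDH) activity fluoresce, into an ALDH-positive population (labelled as cancer stem cells) and an ALDH-negative population (labelled as anti cancer stem cells). Neither label names an allele or an agent other than the sort. Each population was measured on 1 array, from 1 line, so no difference below has a replicate check and no test of the populations was possible.

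A receptor of this class binds its ligand outside the cell, pairs with another receptor molecule and activates a kinase domain inside the cell. Adaptors such as GRB2 and SHC1 then couple the receptor to RAS and the ERK kinases and to PI3 kinase and AKT, while sprouty proteins, dual-specificity phosphatases and the CBL ubiquitin ligases damp the signal. In mammary epithelium the EGF, FGF and ephrin receptors act in duct growth and cell positioning. KDR and FLT1, the VEGF receptors, are best known from endothelial cells, and CSF1R and FLT3 from blood cells. Several receptor genes also give truncated or soluble forms from shorter transcripts.

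Each value is a normalised signal in arbitrary intensity units, with the ALDH-negative array given first wherever a pair of signals is printed, and each change is the log2 ratio of the ALDH-positive over the ALDH-negative array. The error beside a ratio combines the scanner software's error estimates of both signals and covers neither cultures nor sorts. A probe counted as measured when it was well above background on at least 1 array, and the brightest measured probe stood for a gene. A Z-score placed each log2 ratio against the 250 probes on either side of similar signal. A probe was called higher with a Z-score of at least 2.0 and a ratio of at least 1.5, and lower with a Z-score of at most -2.0 and a ratio of at most 0.75. Each probe binds its target with its own strength, so signals of different probes do not order genes by level. They were set side by side only to choose the probe for a gene and to sum the signals of marker lists.

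The letters of some receptor probes are shown first. The results on the runs in *Ephb3* and *Epha5* and on the overlap of the *Fgfr2* probes draw on them. The other letters are given for reference. Each probe is 60 bases long and 30 of them are printed, 5′ to 3′, with positions on mouse assembly NCBI37. The *Ephb3* probe (chr16:21223165-21223224, plus strand) and the only *Epha5* probe above background (chr5:84487348-84487407, minus strand) hold runs of alternating T and G. Bases 31 to 60 of each are printed with the run in capitals; it reaches the last base of the *Ephb3* probe, while in the *Epha5* probe other bases follow its 20 bases.
Ephb3: GTGTGTGTGTGTGTGTGTGTGTGTGTGTGT
Epha5: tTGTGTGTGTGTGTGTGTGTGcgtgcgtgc

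The other *Epha5* probes, 2 in number, were above background on neither array and hold no such run. Their first 30 bases are given for comparison (chr5:84494886-84494945 and chr5:84483837-84483896, minus strand).
Epha5, silent probe A: gtaccatttattacctataaatatcatagt
Epha5, silent probe B: gttcccatctgcatttgtttgtgctttcag

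The *Fgfr2* probes overlap by 42 bases, yet 1 was above background on both arrays and the other on neither. Bases 1 to 30 of the probe that gave signal (chr7:137307473-137307532, minus strand) and bases 31 to 60 of the probe that did not (chr7:137307455-137307514, minus strand) are shown, with bases that lie in both probes in capitals.
Fgfr2, with signal: atgccttatgaaccctgtCTGCCTCAGTAT
Fgfr2, without signal: GTTAAAACATGAgtgaatgtgtcttcctgt

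The *Kdr* probes start 1086 bases apart in the genome. The first 30 bases of the probe with signal (chr5:76330395-76330454) and of the probe without (chr5:76329309-76329368) are given, both on the minus strand. They are followed by those of the only *Epha10* probe (chr4:124563692-124563751, plus strand).
Kdr, with signal: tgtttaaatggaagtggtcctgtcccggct
Kdr, without signal: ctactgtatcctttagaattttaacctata
Epha10: aatcagaaagattgggcacatagtgaaatg

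Of the 83 receptor probes, 48 were measured (57.8%, against 51.3% of all probes), 43 of them on both arrays and 5 on 1 array. No receptor probe was called higher, where 1.43% of all 28585 measured probes were. A total of 2 receptor probes, those of *Kdr* and *Epha10*, were called lower, which is 4.17% of the measured receptor probes against 2.86% of all measured probes. Among the 34 measured genes, 14 had a log2 ratio above 0 (41.2%, against 59.5% of all measured genes) and 20 below 0. Their median log2 ratio was -0.03, where that of all 14916 measured genes was 0.04, and 15 of the 34 lay within their own scanner error of 0. The 10th to 90th percentile range of their log2 ratios was -0.41 to 0.33, where that of all measured genes was -0.30 to 0.38.

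**Figure D1:**
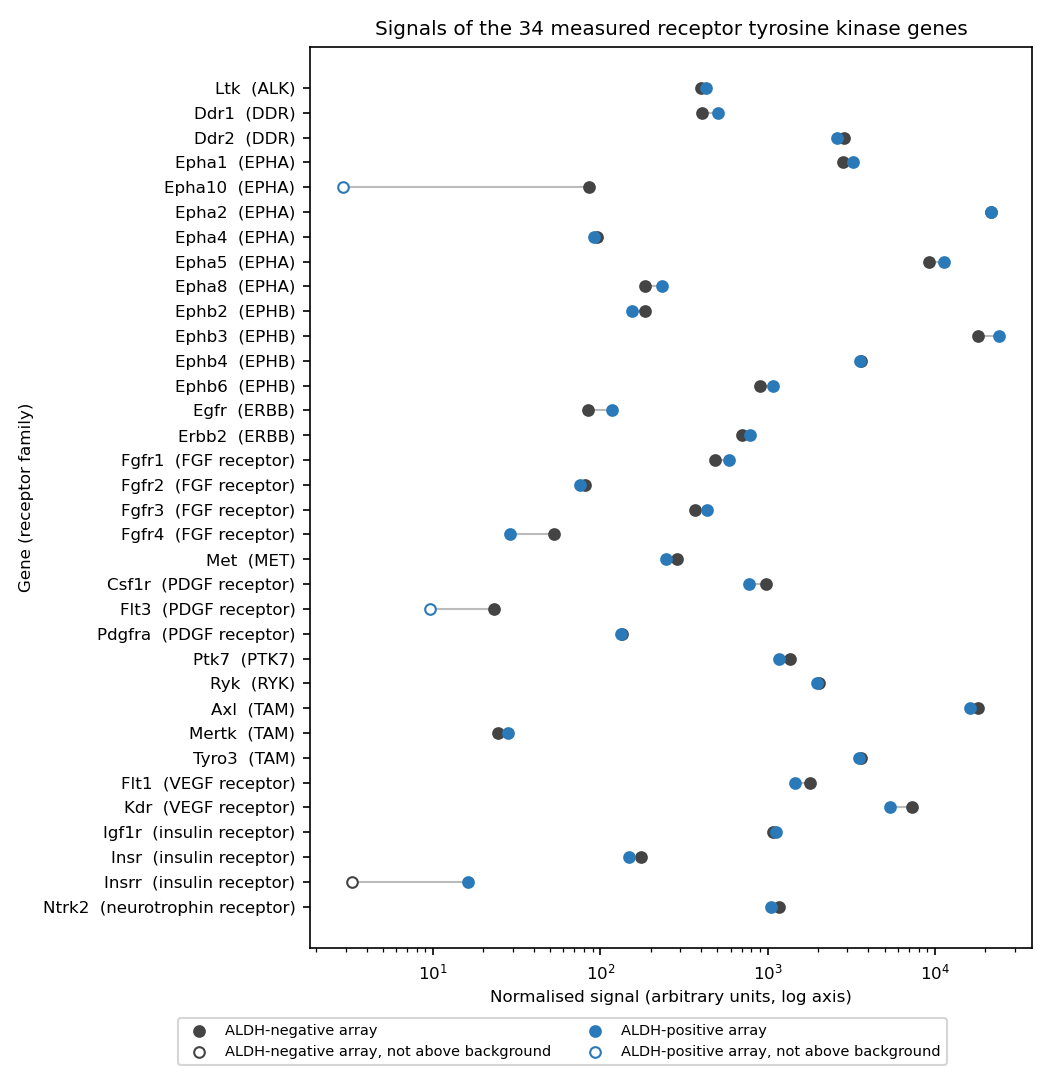
Normalised signal (log axis) on the ALDH-negative and the ALDH-positive array for the probe that stands for each of the 34 measured receptor genes, with the family in brackets. Filled points are well above background and open points are not; the pairs of points lie close together except for *Epha10*, *Flt3* and *Insrr*, which were above background on 1 array, and *Fgfr4*.

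Ephrin receptors bind membrane-bound ephrins on neighbouring cells and position cells by repulsion or adhesion. In the A class, 6 of 9 genes were measured. *Epha2*, which responds to ephrin-A ligands in epithelial cells, had signals of 21692 and 21522 (log2 ratio -0.01, error 0.20). *Epha1* had 2817 and 3245 (log2 ratio 0.20), *Epha8* 185 and 233 (0.34) and *Epha4* 95.7 and 91.9 (-0.06). None of these was called.

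*Epha10*, whose product is held to lack kinase activity, had a signal of 86.0 on the ALDH-negative array and 2.89 on the ALDH-positive array, where it was not well above background. It was called lower (Z-score -4.55), with a floor-based fold of 6.78, lower on the ALDH-positive array. This fold applies to the processed signals alone. It sets the ALDH-negative signal against 12.7, the lowest signal of any probe well above background on the ALDH-positive array. The matching floor on the ALDH-negative array was 13.1. Such a fold is no strict limit, since probes not above background can exceed the floor. The *Cspg4* probe, above background on neither array, had 13.3 on the ALDH-positive array. The *Epha10* values rest on 1 spot per array and on the scanner's background subtraction. The log2 ratio was -4.90 on processed signals, -1.24 with normexp background correction and -1.16 with none, called lower each time. Before background subtraction this spot read 145 over a local background of 57 on the ALDH-negative array and 69.0 over 58 on the ALDH-positive array. Of the 1082 probes above background on the ALDH-negative array alone, 31 had a floor-based fold at least as large.

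In the B class, 4 of 5 genes were measured. *Ephb4*, known as the receptor of ephrin-B2, had signals of 3590 and 3548 (log2 ratio -0.02, error 0.20), and its second probe had 529 and 452 (-0.23). *Ephb6*, another receptor held to lack kinase activity, had 902 and 1083 (0.26) on 1 probe and a log2 ratio of 0.44 (error 0.40) on the other. *Ephb2*, which binds ephrin-B ligands, had 186 and 154 (-0.27). *Ephb3*, a receptor of the same ligands, had 17996 and 24204 and was not called, since its Z-score of 2.31 passed the limit and its ratio of 1.34 did not (log2 ratio 0.43, error 0.20). *Epha5*, a receptor of ephrin-A ligands, had 9167 and 11333 (0.31, Z-score 1.67) on the probe with the T and G run.

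Other probes with such a run gave similar ratios. The motif TGTGTGTGTGTGTG, or its other phase GTGTGTGTGTGTGT, was searched in the probes' own letters and occurred in 91 probes, 0.163% of the array, of which 2 were receptor probes. A total of 90 of the 91 were measured (98.9%, against 51.2% of probes with neither run), and 88 of the 90 had a log2 ratio above 0. The median log2 ratio of these 90 probes was 0.36, with a 10th to 90th percentile range of 0.29 to 0.45, and 0 were called higher. The log2 ratios of *Ephb3* (0.43) and *Epha5* (0.31) lay inside that range. How much of either signal came from the named transcript was not tested.

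**Figure D2:**
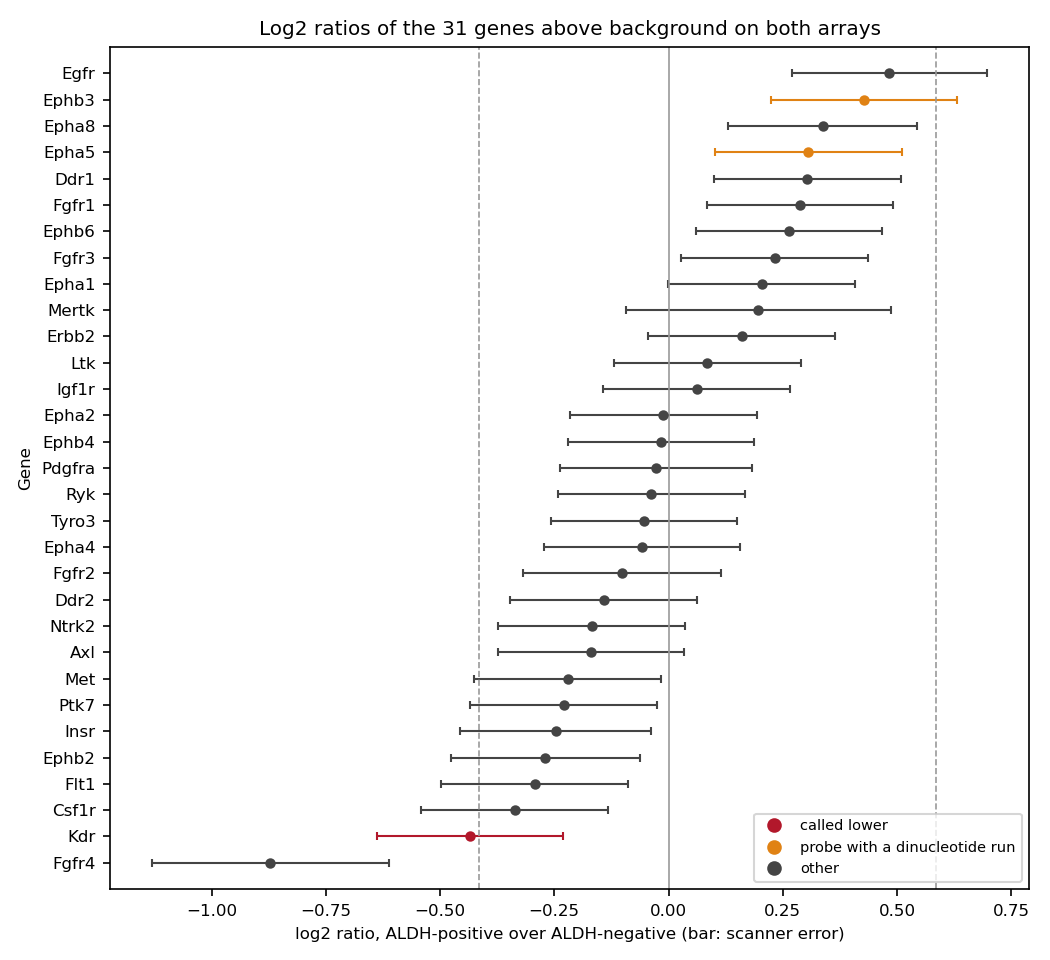
Log2 ratio of the ALDH-positive over the ALDH-negative array for the 31 receptor genes above background on both arrays; bars are the scanner error and dashed lines mark ratios of 0.75 and 1.5. *Kdr* was called lower and no gene was called higher; *Ephb3* and *Epha5*, whose probes hold a dinucleotide run, are marked apart.

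The VEGF receptors gave the other call. *Kdr*, the main signalling receptor of VEGF-A, fell from 7292 on the ALDH-negative to 5394 on the ALDH-positive array (log2 ratio -0.43, error 0.20, ratio 0.74, Z-score -2.39). Before normalisation its signals were 6012 and 6498, a raw log2 ratio of 0.11, where the median raw log2 ratio of all measured probes was 0.49. The call lay just past the ratio limit of 0.75. It was lost when each array was instead shifted to its 75th percentile (log2 ratio -0.35), under 2 other background treatments (-0.41 each), with all probes as the reference of the Z-score, and with a ratio limit of 1.5 both ways. The second *Kdr* probe was printed in 10 spots on each array. These ranged from 2.59 to 3.48 on the ALDH-negative and from 2.73 to 5.37 on the ALDH-positive array, and the probe was above background on neither. *Pdgfra*, *Kit* and *Kdr* are neighbours on mouse chromosome 5. *Pdgfra* was measured without a call, while *Kit* was above background on neither array.

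*Flt1*, which binds VEGF-A and is also made as a soluble decoy, had signals of 1788 and 1459 (log2 ratio -0.29, Z-score -1.53). Its second probe had 675 and 656 (-0.04) and another was above background on neither array. *Flt4*, the receptor of VEGF-C, was not measured. Of 12 endothelial marker genes, 5 were measured, none called, and their signals summed to 1332 and 1414. *Eng*, which other cells also express, had 1228 and 1281, *Pecam1* 27.0 and 31.3, *Cd34* 46.3 and 60.9, *Mmrn2* 16.6 and 27.1 and *Esam* 14.8 and 13.0. The other 7 genes of the list, *Cdh5*, *Vwf*, *Emcn*, *Robo4*, *Cldn5*, *Erg* and *Sox17*, were above background on neither array. The part of endothelial RNA in the *Kdr* and *Flt1* values was not tested.

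In the PDGF receptor family, 3 of 5 genes were measured. *Csf1r*, the receptor of the macrophage growth factor CSF1, had signals of 971 and 769 (log2 ratio -0.34, error 0.20, Z-score -1.68). Its second probe had 253 and 206 (-0.30) and another was above background on neither array. *Pdgfra* was printed in 10 spots, which ranged from 123 to 162 with a median of 132 on the ALDH-negative array and from 111 to 152 with a median of 135 on the ALDH-positive array. These spots overlapped. *Flt3*, a receptor of early blood cells, had 23.2 and 9.64, the latter not well above background. Its floor-based fold on processed signals was 1.83, lower on the ALDH-positive array, and it was not called (Z-score -1.16). Its log2 ratio was -1.27 on these signals, -0.17 with normexp and -0.24 with no background correction. All 5 measured genes of the PDGF and VEGF receptor families had log2 ratios below 0, as did 20 of the 34 receptor genes, these 5 included. Of these 5, *Flt3* was above background on 1 array alone and *Pdgfra* lay within its own error of 0. Joining these families was not planned. The lone measured genes of the MET, PTK7, RYK and neurotrophin receptor families were below 0 too. Among all measured genes, 59.5% had log2 ratios above 0.

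Of 11 leukocyte marker genes on the array, 4 were measured, and their signals summed to 9460 and 6071. *Itgam* had 7301 and 3795 (log2 ratio -0.94, called lower), *Cd68* 762 and 1032 (0.44, Z-score 2.33), *Cd3e* 917 and 664 (-0.47, Z-score -1.93) and *Cd14* 480 and 580 (0.27). *Cd68* passed the Z-score limit but had a ratio of 1.36, and *Cd3e* had a ratio of 0.724 but missed the Z-score limit. This *Itgam* probe holds a run of alternating C and A. The gene's other probes had 21.8 and 28.4 (0.38) and 24.3 and 15.3, and the last of these probes was above background on 1 array alone. The motif CACACACACACACA, or ACACACACACACAC, occurred in 45 probes, of which 43 were measured and 38 of these called lower (88.4%), with a median log2 ratio of -0.92. Without that probe the summed leukocyte signal was 2181 and 2305, and no leukocyte marker was called. *Ptprc*, *Adgre1*, *Lyz2*, *Fcgr3*, *Spi1* and *Laptm5* were above background on neither array. None of the 83 receptor probes holds the C and A run.

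The 10 epithelial markers were all measured and all had log2 ratios above 0, with a median of 0.31 and a summed signal of 341413 and 392883. *Cldn3*, *Cldn7* and *Esrp1* were called higher. The background of 1.43% called higher is a share of all measured probes and not of genes. *Krt19* (6366 and 9263, Z-score 2.95) missed the ratio limit at 1.46. Of 10 fibroblast and pericyte markers 4 were measured, with a summed signal of 163 and 221, and *Postn* was called higher (74.0 and 144) on a probe in the edge zone of the array described below with *Egfr*. The probes of *Epcam* and *Krt18*, neither of them called, lay in that zone too. The part of the epithelial, fibroblast and pericyte markers in the receptor values was not tested.

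The EGF receptor family had 2 of 4 genes measured, both with higher signals on the ALDH-positive array and neither called. *Egfr*, the receptor of EGF, TGF-alpha and amphiregulin, was printed in 10 spots that ranged from 64.2 to 99.3 (median 85.9) on the ALDH-negative and from 108.5 to 127 (median 116) on the ALDH-positive array. These spots did not overlap, but how often that held for other repeated probes was not counted. The mean log2 ratio was 0.48 (error 0.21, Z-score 1.20). The other *Egfr* probes gave the same direction, with 19.0 and 32.0 (log2 ratio 0.75) on the second. The last, above background on the ALDH-positive array alone, had a floor-based fold of 1.69 on processed signals, higher on that array. Both of these probes were printed near the far edges of the array (its final eighth by row or column). In this zone 3.78% of measured probes were called higher against 0.689% elsewhere, and 4.35% were called lower against 2.39%. The zone held 23.9% of all measured probes and 12 of the 48 measured receptor probes. Among the latter were those that stood for *Epha2*, *Epha4*, *Epha5*, *Epha8*, *Ephb6*, *Insr* and *Tyro3*.

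*Erbb2*, the receptor that pairs with the other members without a ligand of its own, was also printed in 10 spots. They ranged from 667 to 722 (median 696) on the ALDH-negative and from 754 to 806 (median 779) on the ALDH-positive array without overlap, for a log2 ratio of 0.16 (error 0.20). Repeated spots share 1 labelled RNA, so their separation concerns the arrays and not the populations. Over all probes above background with at least 10 spots, the median SD of the spots in log2 units was small. It was 0.060 on the ALDH-negative array (203 probes) and 0.048 on the ALDH-positive array (215 probes). How many of these probes also failed to overlap was not counted, so the separation is not shown to be particular to *Egfr* and *Erbb2*. *Erbb3* and *Erbb4* were not measured.

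All 4 FGF receptor genes were measured, and their probes often differed. *Fgfr1* had signals of 483 and 589 (log2 ratio 0.29) on the probe that stood for it, but 281 and 256 (-0.13) and 49.5 and 42.9 (-0.20) on its other probes. The probe with 281 and 256 shares a stretch of 14 bases, on either strand, with 123 probes of other genes, where the median receptor probe does so with 2; the *Ephb3* (142) and *Epha5* (147) probes were the only other receptor probes with over 100. *Fgfr3* had 370 and 435 (0.23) on 1 probe, 31.4 and 28.7 (-0.13) on another and no signal above background on the last. *Fgfr4*, which pairs with beta-klotho in the liver, had 52.7 and 28.8 (log2 ratio -0.87, error 0.26), the lowest log2 ratio among receptor genes above background on both arrays. It was not called, since its Z-score at this low signal was -1.39. Its second probe, above background on the ALDH-positive array alone, went the other way. The floor-based fold of that probe on processed signals was 1.22. *Fgfr2* had 81.4 and 75.8 (-0.10) on the probe with signal. The overlapping *Fgfr2* probe gave 3.07 and 3.54 over 9 spots per array.

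The insulin receptor family had all 3 genes measured. *Igf1r*, the receptor of insulin-like growth factors, had 1074 and 1121 (log2 ratio 0.06). *Insr*, the insulin receptor, had 175 and 147 (-0.25) on 1 probe but 114 and 128 (0.16) and 45.3 and 49.0 (0.11) on the others. *Insrr*, an orphan relative that senses alkaline pH, was above background on the ALDH-positive array alone, with 3.25 and 16.2 (Z-score 1.83). Its floor-based fold on processed signals was 1.23, higher on that array. Its log2 ratio was 2.32 on these signals, 0.25 with normexp and 0.32 with no background correction. *Met*, the receptor of hepatocyte growth factor, ranged over its 10 spots from 252 to 306 (median 289) on the ALDH-negative and from 221 to 267 (median 244) on the ALDH-positive array. These ranges overlapped (log2 ratio -0.22), and *Mst1r*, its relative, was not measured.

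The TAM receptors bind GAS6 and protein S and act in the clearance of dying cells. *Axl* had signals of 18108 and 16103 (log2 ratio -0.17, error 0.20), *Tyro3* 3625 and 3491 (-0.05) and *Mertk* 24.5 and 28.0 (0.20). The discoidin receptors bind collagen, and *Ddr1*, the epithelial one, had 407 and 503 (0.30, Z-score 1.29). *Ddr2*, known from mesenchymal cells, had 2861 and 2593 (-0.14) on 1 probe and 391 and 412 (0.08) on the other. No TAM or discoidin receptor was called.

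Among the remaining genes, *Ryk* and *Ptk7*, Wnt-binding receptors whose kinase domains are held to be inactive, had 2020 and 1968 (log2 ratio -0.04) and 1363 and 1162 (-0.23). *Ltk*, a relative of ALK, had 402 and 426 (0.08). *Ntrk2*, the receptor of BDNF, had 1175 and 1045 (-0.17) on 1 probe, while its other 2 probes, 1 of them printed in 10 spots, were above background on neither array. The 17 genes with no measured probe were *Alk*, *Epha3*, *Epha6*, *Epha7*, *Ephb1*, *Erbb3*, *Erbb4*, *Flt4*, *Kit*, *Mst1r*, *Musk*, *Ntrk3*, *Pdgfrb*, *Ret*, *Ros1*, *Tek* and *Tie1*. Their signals lay between 2.70 and 13.0, which gives no level and no ratio.

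**Figure D3:**
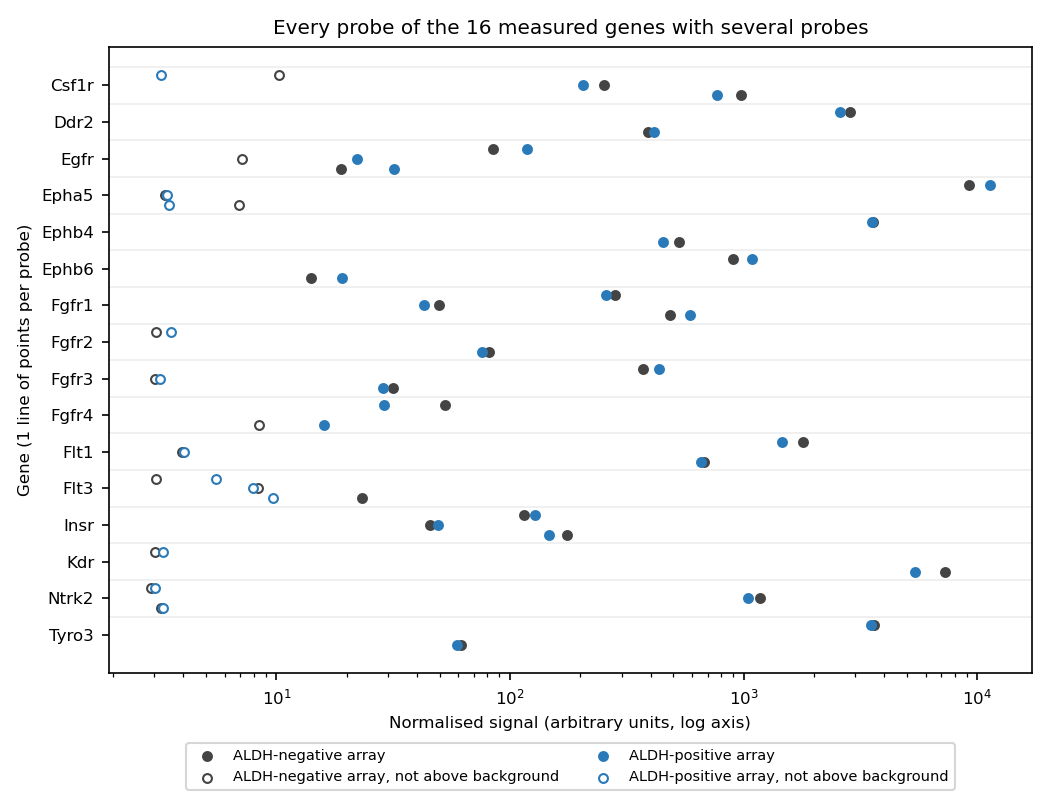
Normalised signal (log axis) of every probe of the 16 measured receptor genes that had several probes, 1 line of points per probe, on the ALDH-negative and the ALDH-positive array. Filled points are well above background and open points are not. For *Kdr*, *Epha5*, *Ntrk2*, *Flt1*, *Csf1r*, *Fgfr2* and *Fgfr3*, a probe filled on both arrays stands beside another of the same gene open on both. *Flt3*, *Egfr* and *Fgfr4* also have open points.

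Probes of 1 receptor gene thus often disagreed on whether the gene was seen at all. Of the 15 receptor genes with several probes and at least 1 above background on both arrays, 7 had another probe above background on neither array (46.7%), where 1460 of 5188 such genes on the whole array did (28.1%). These shares were not matched for the number of probes per gene, so they do not show receptors to disagree more often than other genes. In the *Ntrk2* case the probe with signal started 58483 bases from the nearer of the silent probes. In *Kdr* that distance was 1086 bases and in *Fgfr2* it was 18 bases. Which transcript form or exon each probe reads was not analysed here.

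The receptors' partners were read from 5 lists. Calls in them are counted per gene, on its brightest measured probe, while the backgrounds given are shares of probes. The units differ, and the share of all genes called is not given here. Of 60 ligand genes 43 were measured, with 0 called higher, 3 called lower (backgrounds of 1.43% and 2.86% of probes) and a median log2 ratio of 0.06. *Figf* was not found under that name. *Kitl*, the ligand of KIT, fell from 200 to 118 (log2 ratio -0.77, error 0.21) while *Kit* itself was not measured. *Mdk*, which encodes the growth factor midkine, fell from 228 to 109 (-1.07) on 1 probe, and its other probe had 118 and 121 (0.04). *Fgf23*, an endocrine FGF, fell from 6123 to 3109 (-0.98) on a probe with the C and A run, and its other probe was above background on neither array. *Areg*, a ligand of EGFR, had 1590 and 1201 (-0.41, Z-score -2.01) and missed the limit with a ratio of 0.755. The VEGF genes *Vegfa* (1183 and 1299), *Vegfb* (3512 and 3556) and *Vegfc* (1532 and 1562) had log2 ratios between 0.02 and 0.14 on the probes that stood for them, the second *Vegfa* probe had 449 and 367 (-0.29), and *Csf1* (5589 and 5643) one of 0.01.

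Of 15 coreceptor genes 10 were measured and none was called, with a median log2 ratio of 0.14. *Nrp1* and *Nrp2*, the neuropilin coreceptors of VEGF, had 65.9 and 88.7 (0.43) and 19854 and 19520 (-0.02). *Gfra4*, a coreceptor of RET, had 31702 and 24685 (-0.36, Z-score -1.86) on a probe in the edge zone, and its other measured probes had 127 and 111 (-0.20) and 57.7 and 57.3 (-0.01). All 38 genes of the adaptor and core signalling list were measured and none was called (median 0.05). *Grb7*, an adaptor of ERBB2, had 1299 and 1843 with a Z-score of 2.42 and a ratio of 1.42, short of the limit of 1.5. *Src*, which many of these receptors activate, had 79.7 and 46.2 (log2 ratio -0.79, Z-score -1.63).

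Of 34 inhibitor and feedback genes 29 were measured and 2 were called lower, against 2.86% of probes (median 0.04). *Lrig2*, a relative of the EGFR inhibitor LRIG1, had 381 and 272 (-0.49) and just missed the limit with a Z-score of -1.99. *Dusp5*, a nuclear phosphatase of ERK, fell from 220 to 139 (log2 ratio -0.66, error 0.21). *Nf1*, which switches RAS off, fell from 773 to 520 (-0.57), on a probe printed in the same edge zone as the dim *Egfr* probes. Lower calls were also more frequent in that zone than elsewhere (4.35% against 2.39% of measured probes). All 13 ERK target genes were measured and none was called (median 0.07). Of 7 other receptor tyrosine kinase genes 4 were measured and none was called.

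**Figure D4:**
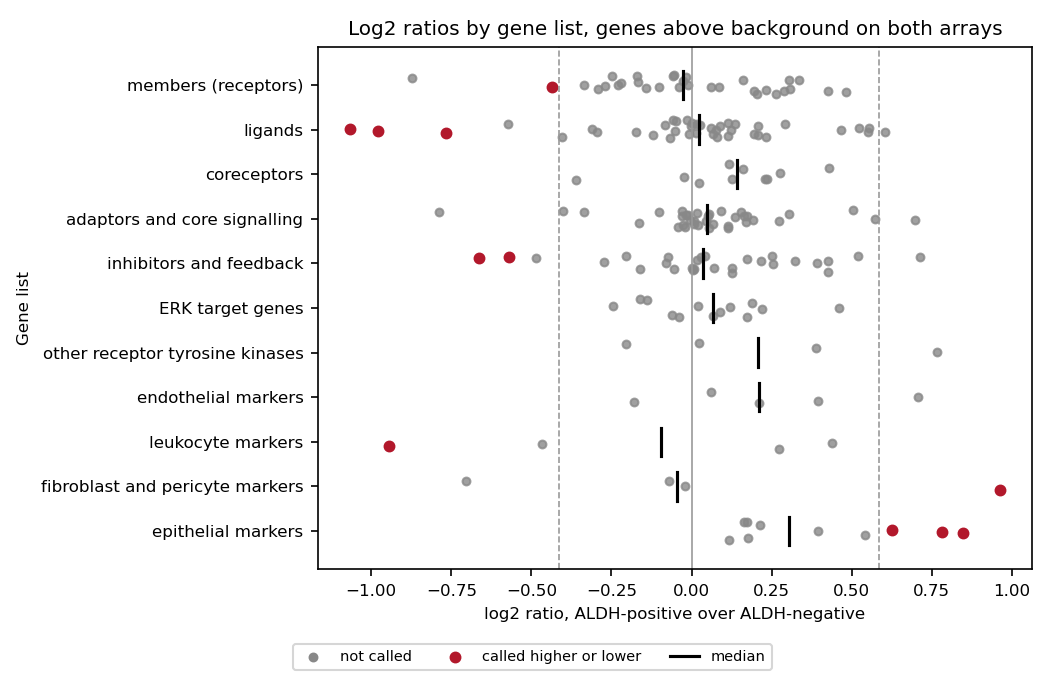
Log2 ratio of the ALDH-positive over the ALDH-negative array for the genes above background on both arrays, by gene list, with the median of each list as a bar and ratios of 0.75 and 1.5 as dashed lines. Points called higher or lower are marked; the receptors and their partner lists centre near 0 and the epithelial markers lie above 0.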

How the data were processed

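The authors labelled 50 ng of RNA per population with Cy3, hybridised it to Agilent SurePrint G3 Mouse arrays and read the spots with Feature Extraction software (release 9.5.1.1 by the submitters' processing notes, release 10.7.1.1 per the file headers). The labels and the paper name different RNA extraction kits. The deposited scanner files hold, per spot, a mean signal, a background and a processed intensity with its error. The deposited value table holds quantile-normalized intensities, used as an alternative. Here 3671 control spots and population outlier spots were left out, spots of a probe averaged as log2 values, and the log2 intensities of 55681 probes quantile-normalized over both arrays (Python 3.11.15, numpy 2.4.6, pandas 2.3.3); limma 3.58.1 served for normexp. On the ALDH-negative array 26985 probes and on the ALDH-positive array 27503 were well above background, 25903 on both. The number of arrays limits the precision. The Z-score's window is a choice made here. The script was tested on simulated data, with changes planted in bright probes only and larger than that of *Kdr*. That test therefore covers neither a change as small as that of *Kdr* nor a signal as dim as that of *Epha10*.

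The members and lists were chosen with earlier results of these data known. Receptor genes called, past a Z-score of 1.5 either way, of high signal or with several measured probes were to be named with values, and the other measured ones were given too. List genes named beyond those called, and the dinucleotide runs, were chosen after values were seen. A planned rule, to print only probe letters found in coding sequence, could not be applied without protein sequences, so 30 bases were shown. The RefSeq gene table (GRCm38.p6) held the accessions of 76 receptor probes, 0 under another symbol.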

Additional observations from a re-analysis of the deposited data

How the results depend on the processing

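No paired analysis was possible because each population had a lone array. A total of 12 other settings were tried, and 1 more was chosen after seeing the data (without probes that hold a T and G or C and A run). The number of receptor probes called lower was 1 instead of 2 with a shift of each array to its 75th percentile, with normexp background correction, with no background correction, with probes limited to those seen on both arrays, and with a ratio limit of 1.5 both ways. It was 2 in the others that gave calls, including without the probes with runs. The number called higher was 2 instead of 0 with the Z-score over all probes (*Insrr* and 1 *Egfr* probe, each above background on the ALDH-positive array alone) and 0 elsewhere. The *Kdr* call was lost under 5 settings, with log2 ratios from -0.44 to -0.35 over all of them, and *Epha10* was called in each of the 12 that measured it, at -5.11 to -1.16. With the Z-score over all probes *Flt3* was called lower. The median log2 ratio of the measured genes ran from -0.05 to 0.04, the highest with the 75th percentile shift, where that of all genes was 0.08. With the median over a gene's probes, *Fgfr1* (-0.13), *Insr* (0.11) and *Fgfr4* (0.03) changed sign. So did *Insr* (0.15) without the edge zone, *Epha4* (0.02) with normexp, and *Epha2* (0.04), *Ephb4* (0.08), *Ryk* (0.05) and *Tyro3* (0.04) with the 75th percentile shift. The cause of these changes was not tested, except that the filter on both arrays leaves *Epha10* out by construction. Signals under 12.7 were above background on neither array and bear no order.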
